A study of Mus musculus with 6 samples.

Results

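The aminoacyl-tRNA synthetases were examined in MII oocytes, the mature eggs arrested at the second meiotic metaphase, from ICR mice of 42 to 45 weeks. The members were the rows of the deposited gene table whose mouse Ensembl gene carried the symbol of a synthetase, together with Farsa, Farsb, Eprs, Aimp1 and Aimp2. The rule found 40 genes among the 60193 listed. By name, 21 were cytosolic enzymes, 17 were mitochondrial enzymes, whose symbols end in 2, and Aimp1 and Aimp2 encode scaffold proteins of the multi-synthetase complex. Tarsl2, now called Tars3, is a further cytosolic threonyl enzyme in spite of its final 2, and Gars and Kars each encode both the cytosolic and the mitochondrial enzyme of their amino acid. The rule used symbols and no measured value, although it was chosen with earlier results of these data known.

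RNA was sequenced from 6 pools of MII oocytes, 3 matured in vitro (IVM group) and 3 matured in vivo (IVO group). Each pool held 20 oocytes from 3 mice primed with PMSG, a gonadotropin that makes follicles grow. For IVM, oocytes at the germinal vesicle stage were stripped of cumulus cells and cultured in M16 medium for 12 h. For IVO, oocytes completed maturation in the animal and were collected 14 h after hCG, which triggers ovulation. Cumulus cells were removed from the ovulated oocytes with hyaluronidase, and from the IVM oocytes with a pipette before culture. The groups therefore differed in the hormone given, the presence and removal of cumulus cells, the medium and the timing as well as in the place of maturation. These differences cannot be told apart. Each pool mixes mice, so a value is an average over animals, and fewer oocytes holding a transcript cannot be told apart from less of it in each oocyte.

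Each synthetase joins its amino acid to the matching tRNA with energy from ATP, and the charged tRNA then carries that amino acid to the ribosome. Cytosolic enzymes serve translation of nuclear-encoded mRNA. The mitochondrial enzymes are also encoded in the nucleus and are imported to charge the tRNAs of the mitochondrial genome, which are needed to make the respiratory chain subunits encoded there. The oocyte is very rich in mitochondria, and a maturing oocyte is transcriptionally silent and translates stored mRNA.

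The start regions of both enzymes for threonine and isoleucine are shown because Tars2 and Iars2 had the smallest adjusted p-values among the members. Each is the 250 bases before the start of the canonical transcript in GENCODE M39 on GRCm39, 5′ to 3′ on the gene's strand, and for Tars2 the 110 bases outside the exons of its other transcripts. The windows are chr3:95662431-95662540 (minus strand) for Tars2, chr15:11399752-11400001 (minus strand) for Tars, chr1:185061613-185061862 (minus strand) for Iars2 and chr13:49835326-49835575 (plus strand) for Iars. Capitals mark a match to any of 4 searched motifs on either strand, an ETS core (CCGGAAG), an NRF1 core (CGCATGC), an ATF4 composite core (TGATGNAA) and a TATA box (TATAAA).
Tars2: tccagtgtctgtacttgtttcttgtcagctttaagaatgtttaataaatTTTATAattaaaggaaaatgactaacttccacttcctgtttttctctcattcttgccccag
Tars: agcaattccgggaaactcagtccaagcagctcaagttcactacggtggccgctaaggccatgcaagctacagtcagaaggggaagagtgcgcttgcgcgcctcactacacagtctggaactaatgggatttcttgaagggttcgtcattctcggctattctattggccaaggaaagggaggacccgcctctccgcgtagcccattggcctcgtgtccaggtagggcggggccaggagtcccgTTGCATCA
Iars2: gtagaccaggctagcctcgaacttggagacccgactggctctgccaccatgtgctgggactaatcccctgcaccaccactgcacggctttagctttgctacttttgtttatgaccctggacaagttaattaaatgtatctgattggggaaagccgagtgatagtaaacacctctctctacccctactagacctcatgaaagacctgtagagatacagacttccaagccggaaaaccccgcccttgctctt
Iars: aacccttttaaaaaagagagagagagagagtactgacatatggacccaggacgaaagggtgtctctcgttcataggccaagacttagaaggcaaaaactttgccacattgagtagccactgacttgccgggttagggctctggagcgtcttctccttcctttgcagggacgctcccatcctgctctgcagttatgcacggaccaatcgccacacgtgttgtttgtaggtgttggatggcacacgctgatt

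The capitals in Tars are an ATF4 composite core on the other strand, 8 bases before the canonical start, and those in Tars2 are a TATA box on the other strand, 201 bases before it. The last 24 bases of the Tars window, which hold its match, are exon of other Tars transcripts. The Tars2 window lies inside the annotated span of the gene, which runs to 95667518 on the minus strand. The bases shown may therefore be intron of other Tars2 transcripts, and the match is not read as a promoter element. Neither isoleucyl window held a match. Over the whole windows of all members, the ATF4 core was found in 2 of 21 cytosolic genes (Aars and Tars) and 0 of 17 mitochondrial genes, against 3.39% of 21770 protein-coding genes. The ETS core was found in 7 cytosolic genes (Cars, Farsa, Gars, Hars, Lars, Mars1 and Yars), 3 mitochondrial genes (Mars2, Pars2 and Sars2) and in both scaffold genes, Aimp1 and Aimp2, against 6.89%. The NRF1 core was found in Wars, Vars2 and Yars2, against 3.54%, and the TATA box in 2 cytosolic and 3 mitochondrial genes, against 11.9%. None of the 6 members with an adjusted p under 0.05 held an ETS, NRF1 or ATF4 core in its window. A match is a string of letters and does not show binding.

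Values are FPKM, fragment counts scaled to the length of the transcript and the depth of the library. From the steps between low FPKM values, depth was inferred at 16500000 to 19300000 fragments in the IVM pools and 18100000 to 18300000 in the IVO pools. At that depth 3 fragments on a transcript of 1 kilobase are worth 0.195 to 0.231 FPKM. Differences were tested with limma on log2(FPKM + 1) over 18818 genes with a mean of at least 1 FPKM, with Benjamini-Hochberg adjustment over them, and log2FC stands for IVO minus IVM on that scale, which understates the change of low genes. A DEG had an adjusted p under 0.05 and a log2FC of at least 1 in size. Over all tested genes 3366 DEGs were lower and 114 higher in the IVO group, and the median log2FC was -0.30. With median-ratio scaling between libraries these became 2132, 387 and -0.04, and with quantile normalization 1580, 1097 and 0.17, so a log2FC of about -0.30 is that of the middle gene. All 9 oocyte markers were present, with a lowest value of 26.0 FPKM, and their summed level was 5486 to 7280.3 FPKM in the IVM group and 3827 to 4112 in the IVO group. In every IVO pool 6 of them (Zp1, Zp2, Zp3, Bmp15, Nlrp5 and Mos) were lower than in every IVM pool, with log2FC from -3.69 for Zp2 to -0.86 for Mos, and Dazl was higher, at 0.74. Of all tested genes, 32.6% were lower and 9.62% higher in this way. The part of these marker differences in the results was not tested. Of 13 cumulus and granulosa markers, 3 (Cyp19a1, Fshr and Kitl) had a mean of at least 1 FPKM, Amh was listed at 0 in all pools, and the summed level was 25.0 to 35.7 FPKM in the IVM group and 33.2 to 38.3 in the IVO group. Has2, Tnfaip6, Ptx3 and Gja1 were higher in every IVO pool than in every IVM pool, at no more than 0.86 FPKM. Of 14034 genes with any signal but under the filter, 317 were so. The part of such cells in the results was not tested.

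Levels differed widely between the synthetases, and the most abundant member of each compartment made up most of its class. Dars, the cytosolic aspartyl enzyme, had the highest mean, 1023 FPKM, and ranked 327 of 60193 genes. Its values were 1105, 1355 and 1001 FPKM in the IVM pools and 1006, 696 and 976 in the IVO pools. The groups overlapped. Dars held 77.9% of the summed cytosolic FPKM in the IVM group and 75.4% in the IVO group. Wars2, the mitochondrial tryptophanyl enzyme, came next at rank 424, with 823, 1143 and 987 FPKM in the IVM pools and 530, 516 and 834 in the IVO pools. Its highest IVO pool lay just above its lowest IVM pool. Wars2 held 66.4% and 67.1% of the summed mitochondrial FPKM, and its mean was 112 times that of the cytosolic Wars in the IVM group and 126 times in the IVO group. Fars2, the mitochondrial phenylalanyl enzyme, was the only other member over 100 FPKM, at rank 1155.

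**Figure D1:**
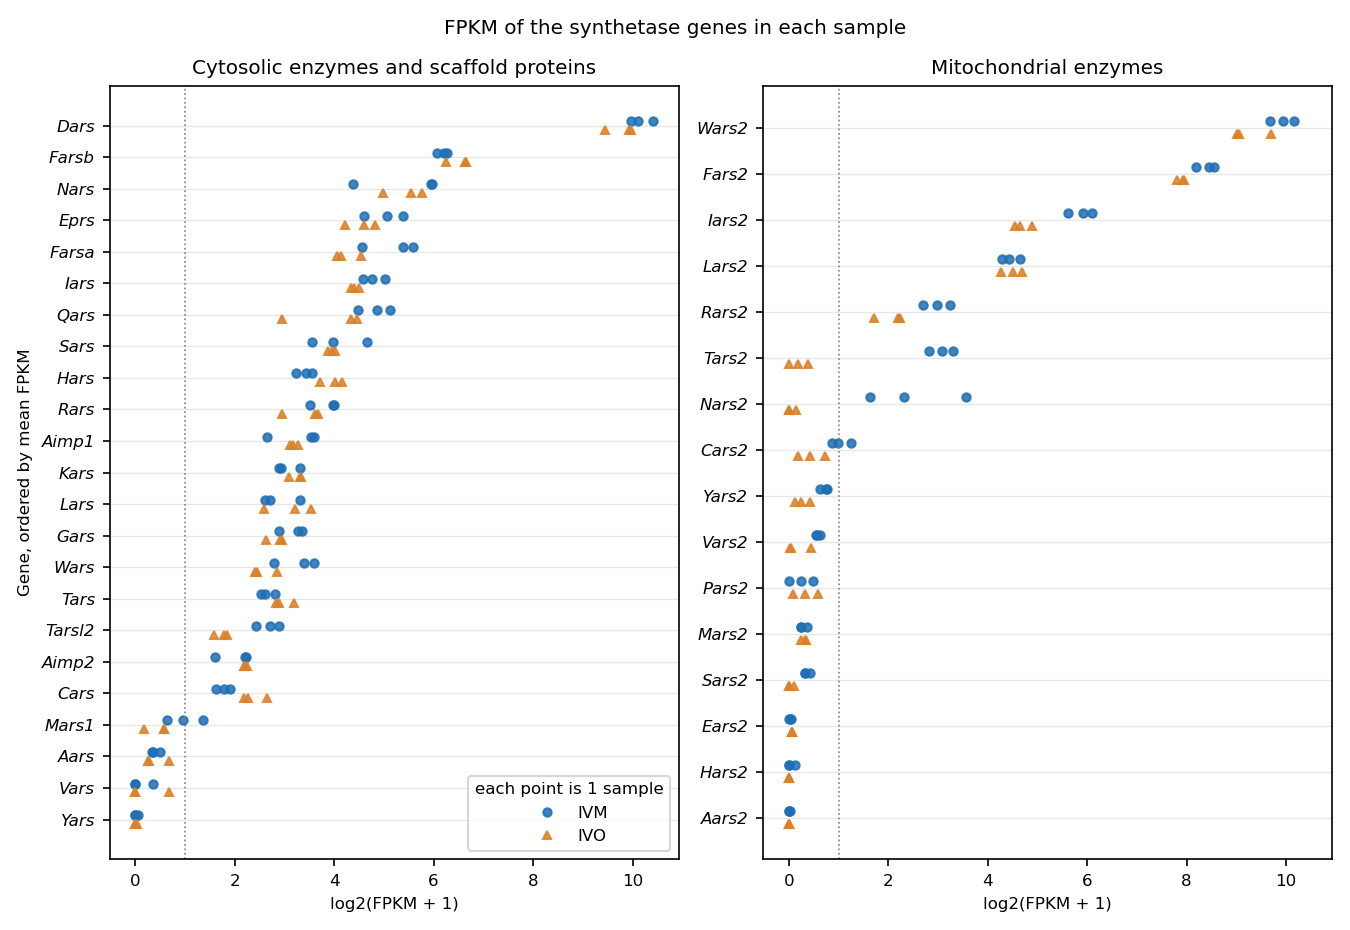
Level of the synthetase genes as log2(FPKM + 1) on the horizontal axis, 1 point per pool, with blue circles for IVM and orange triangles for IVO, and a dotted line at 1 FPKM. Dars and Wars2 sit at the top of their classes, and Tars2 and Nars2 are the genes whose IVM points lie above the dotted line while the IVO points lie near 0.

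Below these, 9 cytosolic enzymes had a mean of 10 to 100 FPKM, from Rars to Farsb, and 7 lay between 1 and 10. Mars1, Aars, Vars and Yars, the enzymes for methionine, alanine, valine and tyrosine, lay under 1 FPKM. The lowest was Yars, at 0, 0 and 0.03 FPKM in the IVM pools and 0, 0 and 0.02 in the IVO pools, which are 3 fragments in all. Among the mitochondrial enzymes, Iars2 and Lars2 were among those between 10 and 100 FPKM, Rars2, Tars2 and Nars2 lay between 1 and 10, and 9 of 17 lay under 1 FPKM. The lowest was Aars2, listed at 0 in 5 pools and at 0.02 FPKM, a single fragment, in IVM pool 2. The filter for testing was passed by 27 of the 40 members, 17 cytosolic, 8 mitochondrial and both scaffold genes. Of these, 25 had a mean of at least 1 FPKM in each group, and Tars2 and Nars2 passed only through the IVM group, so their place among the tested genes is not independent of their difference.

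Of the 27 tested members, 6 had an adjusted p under 0.05, all lower in the IVO group, where 21.5% of all tested genes were so called. As a count this is close to that background. Of them, 4 were DEGs, including Tars2, Nars2 and Iars2, where 17.9% of all tested genes were DEGs lower in the IVO group. No member was called higher in the IVO group by limma, at a background of 1.87% for an adjusted p under 0.05 and 0.606% for DEGs, and 2 members, Hars and Cars, had an unadjusted p under 0.05 in that direction, where 5.56% of all tested genes did. The log2FC was negative in 18 members and positive in 9, and 66.0% of all tested genes were negative and 34.0% positive. The median of the tested members was -0.38, against -0.30 for all tested genes, and it turned to 0.080 with quantile normalization, where that of all genes was 0.17. The rule took Ensembl genes only, and over the 13154 tested Ensembl genes the median log2FC was -0.18 and 61.4% were negative. Among these Ensembl genes 2417 had an adjusted p under 0.05 and were lower in the IVO group, 1926 of them DEGs, and 287 were higher.

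**Figure D2:**
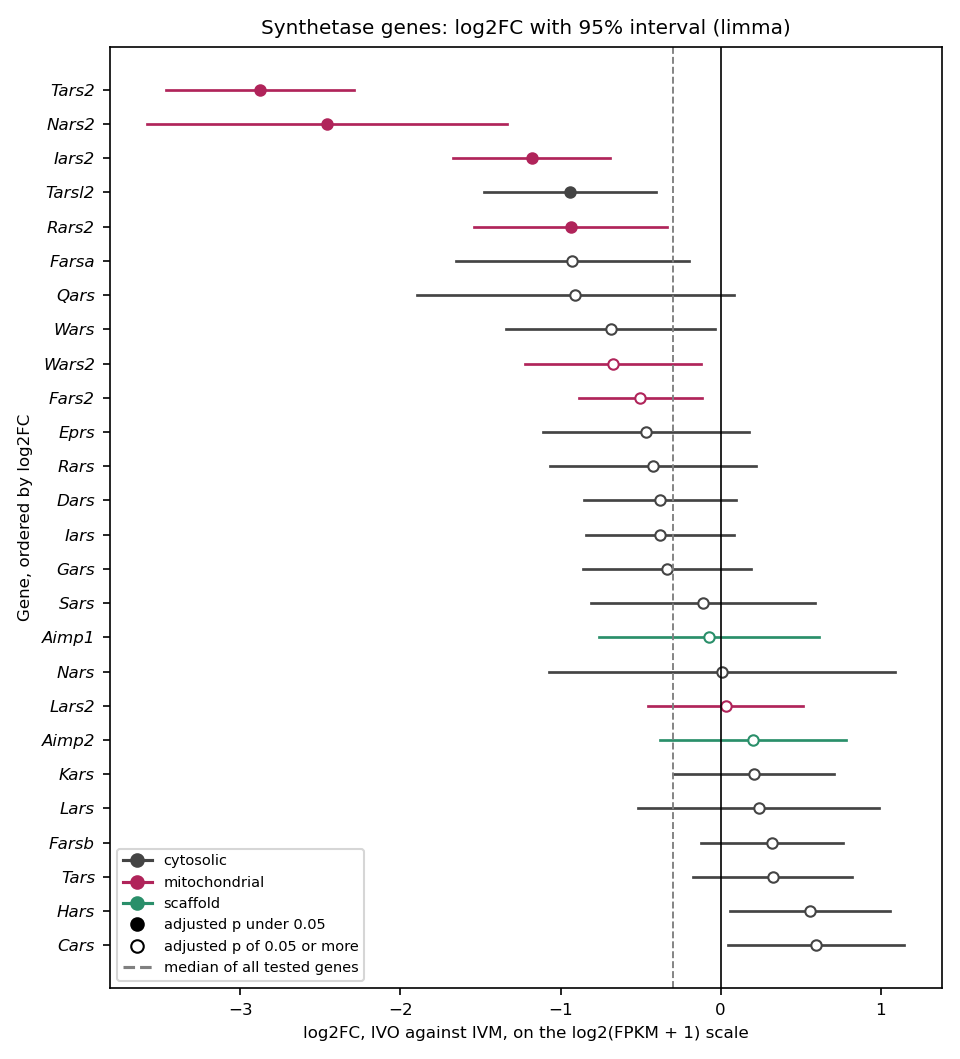
log2FC of tested members (points) with its 95% interval from limma (lines), IVO against IVM, on the log2(FPKM + 1) scale, colored by class and filled where the adjusted p was under 0.05. Mitochondrial genes fill the negative end from -2.88 for Tars2 to -0.94 for Rars2, with the cytosolic Tarsl2 among them, and the dashed line marks the median of all tested genes at -0.30.

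The mitochondrial enzymes held 5 of the 6 calls, out of 8 tested, where 21.5% of all tested genes were called lower. Among the 5 are Tars2 and Nars2, which passed the filter only through the IVM group. Tars2, which charges the mitochondrial tRNA for threonine, was measured at 8.88, 7.43 and 6.06 FPKM in the IVM pools and at 0, 0.14 and 0.3 in the IVO pools. Every IVM pool was far above every IVO pool, with 256 to 320 fragments against 0, 5 and 12. The log2FC was -2.88 (SE 0.25, limma adjusted p = 0.00115), which is -2.58 relative to the median gene. Nars2, the asparaginyl enzyme, was at 2.12, 3.98 and 10.9 FPKM in the IVM pools and at 0, 0.11 and 0 in the IVO pools. The groups did not overlap, although the IVM pools themselves ranged widely, and the IVO reads came to 7 fragments, all in pool 2. Its log2FC was -2.46 (SE 0.48, limma adjusted p = 0.0119). Because both genes entered the test through the IVM group, the fit was repeated over all 32852 genes with any signal, where 9.36% of genes were called lower and 0.776% higher and the adjusted p was 0.00492 for Tars2 and 0.0334 for Nars2.

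Iars2, the isoleucyl enzyme, was at 47.7, 67.7 and 59.7 FPKM in the IVM pools and at 28.6, 24.2 and 22.4 in the IVO pools. The groups stood well apart, and the log2FC was -1.18 (SE 0.21, limma adjusted p = 0.00879). Rars2, the arginyl enzyme, was at 5.48, 8.52 and 6.93 FPKM in the IVM pools and at 3.56, 3.70 and 2.26 in the IVO pools. Its log2FC of -0.94 (SE 0.26, limma adjusted p = 0.0380) rested on all 6 pools, since the adjusted p was 0.0608 to 0.102 when any single pool was left out and 0.0991 with median-ratio scaling.

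**Figure D3:**
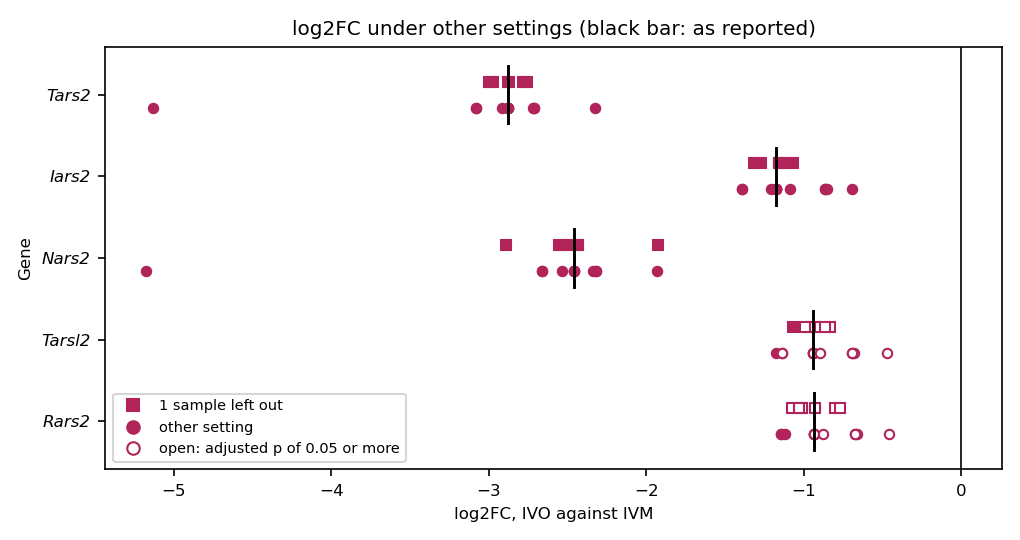
log2FC, IVO against IVM, of members with an adjusted p under 0.05 when the data were processed otherwise, with squares for fits without 1 pool, circles for other settings, open symbols for an adjusted p of 0.05 or more and black bars for the reported value. Every value is negative, the symbols of Tars2, Iars2 and Nars2 are all filled, and most squares of Tarsl2 and Rars2 are open.

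The other tested mitochondrial genes were not called. Wars2 had a log2FC of -0.67 (SE 0.23, limma adjusted p = 0.0787), and Fars2 one of -0.50 (SE 0.16, limma adjusted p = 0.0649), with 292 to 376 FPKM in the IVM pools and 224 to 246 in the IVO pools, which did not overlap. With median-ratio scaling these became -0.35 and -0.18. Wars2 was called when IVO pool 3 was left out (limma adjusted p = 0.0278) and Fars2 when IVM pool 3 was (limma adjusted p = 0.0404). Lars2, the leucyl enzyme, overlapped between groups, at 18.6 to 24.1 FPKM in the IVM pools and 18.3 to 24.7 in the IVO pools, with a log2FC of 0.03. Over the 8 tested mitochondrial genes the median log2FC was -1.06 and stayed negative when libraries were rescaled, at -0.77 by median ratios and -0.58 by quantiles. The 6 of them with a mean of at least 1 FPKM in both groups had a median of -0.80 and included the called genes Iars2 and Rars2. In Iars2, Rars2 and Fars2 every IVO pool was lower than every IVM pool, where 32.6% of all tested genes showed this.

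Some reads of these genes cannot be assigned with certainty, because the library protocol was not stated to keep strand. The exons of Iars2 (chr1:185016803-185061612, minus strand) share 2884 bases with Rab3gap2, which was at 9.22, 10.4 and 11.8 FPKM in the IVM pools and at 15.6, 14.7 and 12.0 in the IVO pools, the opposite order. Rars2 (chr4:34614638-34660904, plus strand) shares 93 bases with Orc3, whose log2FC was -0.21. The exons of Tars2 (chr3:95647269-95667518, minus strand) share 5 bases with the noncoding gene Gm65204, and those of Nars2 (chr7:96600689-96717097, plus strand) share 304 bases with the noncoding gene C230038L03Rik.

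Among the cytosolic enzymes, differences went in both directions and 1 of 17 tested genes was called. Tarsl2, the further threonyl enzyme, was at 5.57, 6.45 and 4.34 FPKM in the IVM pools and at 2.00, 2.43 and 2.59 in the IVO pools. The groups did not overlap, and the log2FC was -0.94 (SE 0.23, limma adjusted p = 0.0257). The call held in 1 of the 6 fits with a pool left out, that without IVM pool 3, and the adjusted p was otherwise up to 0.0838, or 0.0797 with median-ratio scaling of all 6 pools. Without a call, Farsa, Iars and Qars were also lower in every IVO pool than in every IVM pool, while Hars, Cars and Tars were higher in every IVO pool, where 32.6% and 9.62% of all tested genes did so. There was no cytosolic DEG by limma. At an unadjusted p under 0.05, 3 of the 17 genes were lower and 2 higher, where 31.4% and 5.56% of all tested genes were so.

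The main threonyl enzyme Tars was at 4.80, 5.07 and 5.97 FPKM in the IVM pools and at 8.17, 6.44 and 6.09 in the IVO pools. Its log2FC was 0.33 (SE 0.21, limma adjusted p = 0.311), so that the 3 threonyl genes Tars, Tarsl2 and Tars2 had log2FC of 0.33, -0.94 and -2.88. Iars was at 26.0, 22.9 and 31.7 FPKM in the IVM pools and at 21.5, 20.1 and 19.3 in the IVO pools, with a log2FC of -0.38 (SE 0.20, limma adjusted p = 0.212). Nars was at 19.7, 61.1 and 60.9 FPKM in the IVM pools and at 45.8, 53.7 and 30.7 in the IVO pools. IVM pool 1 was the lowest of the 6, and the log2FC was 0.01. Rars was at 10.5, 14.7 and 15.0 FPKM in the IVM pools and at 11.2, 11.8 and 6.68 in the IVO pools, which overlapped, with a log2FC of -0.42 (SE 0.27, limma adjusted p = 0.310). Dars had a log2FC of -0.38 (SE 0.20, limma adjusted p = 0.222).

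Where the cytosolic genes stood depended on the scaling of the libraries. Their median log2FC of -0.33 shrank to -0.05 under median-ratio scaling and turned to 0.16 under quantile normalization, so no direction is given for the class. Hars, Cars and Farsb had log2FC of 0.56, 0.60 and 0.32 with limma adjusted p of 0.102, 0.109 and 0.263, and with median-ratio scaling these were 0.85, 0.84 and 0.64 with adjusted p of 0.0263, 0.0374 and 0.0448. With that scaling 1344 of all 18818 tested genes had an adjusted p under 0.05 and were higher, against 351 as deposited. The 2 subunits of the cytosolic phenylalanyl enzyme thus had log2FC of opposite sign as deposited, -0.93 (SE 0.31, limma adjusted p = 0.0709) for the catalytic Farsa and 0.32 for Farsb, and they kept these signs with median-ratio scaling, at -0.62 and 0.64. The histidyl enzyme Hars ranged over 8.35 to 10.7 FPKM in the IVM pools and 12.1 to 16.9 in the IVO pools, and the cysteinyl enzyme Cars over 2.09 to 2.76 and 3.53 to 5.28. Farsa was called when IVM pool 3 was left out (limma adjusted p = 0.0248). It ranged over 22.4 to 46.9 FPKM in the IVM pools and 15.7 to 22.4 in the IVO pools, which nearly met, and the glutaminyl enzyme Qars over 21.4 to 33.6 and 6.69 to 20.97, with a log2FC of -0.91 (SE 0.42, limma adjusted p = 0.168) that rested on a wide spread in the IVO pools. The tryptophanyl Wars had a log2FC of -0.69 (SE 0.28, limma adjusted p = 0.119) and its groups overlapped. The enzymes shared with mitochondria, Gars and Kars, had log2FC of -0.33 and 0.21, and the glutamyl-prolyl Eprs and leucyl Lars had -0.47 and 0.24, with adjusted p from 0.267 to 0.636. Sars went from -0.11 to 0.19 and Aimp1 from -0.07 to 0.21 between these scalings.

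The multi-synthetase complex joins a fixed set of cytosolic enzymes, among them the fused glutamyl-prolyl Eprs, to scaffold proteins. Of the 10 members in it, 9 were tested, and by limma 0 had an adjusted p and 0 an unadjusted p under 0.05. Of all tested genes, 21.5% and 31.4% were so and lower in the IVO group, and 1.87% and 5.56% so and higher. The median log2FC of these 9 members was -0.38, or -0.06 with median-ratio scaling. Eef1e1, a scaffold protein of the complex that the rule did not take, was called lower (log2FC -1.47, limma adjusted p = 0.00447) and is described below. Aimp1 was at 5.24, 10.6 and 11.1 FPKM in the IVM pools and at 8.63, 8.05 and 7.61 in the IVO pools, with a log2FC of -0.07. Other rows annotated as copies of Aimp1 summed to 0.9 to 1.54 FPKM, so its reads may be split, while 13 copies of Kars summed to no more than 0.03 FPKM. Aimp2 was at 3.65, 2.05 and 3.61 FPKM in the IVM pools and at 3.74, 3.62 and 3.56 in the IVO pools, with a log2FC of 0.20. Of its exon bases, 90.4% lie over exons of other genes, mainly Eif2ak1.

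To set the compartments side by side without any scaling between libraries, the log2 ratio of the mitochondrial to the cytosolic enzyme of an amino acid was taken within each pool, on FPKM + 1. In 9 pairs both genes were tested, with Fars2 set against each subunit, and the ratio was lower in the IVO group in 7 and higher in 2. In 6 pairs every IVO pool had a lower ratio than every IVM pool. This count has no background over other genes, and it includes Tars2 and Nars2, which passed the filter through the IVM group alone. Of the 7 pairs whose genes both had a mean of at least 1 FPKM in each group, 4 were so. Among the 6 pairs, the difference was -3.20 for Tars2 to Tars and -2.47 for Nars2 to Nars, neither of which is among those 7. It was -0.82 for Fars2 to Farsb, -0.80 for Iars2 to Iars, and -0.51 for Rars2 to Rars. With a pseudocount of 0.1 in place of 1 the differences were -5.51 for Tars2 to Tars and -5.19 for Nars2 to Nars, so the size of both depends on the pseudocount. Each of the 6 pairs had p = 0.1 by the two-sided exact permutation test, the smallest that 3 against 3 pools allow, and an adjusted p of 0.15 over the 9 pairs. The values for Tars2 to Tars were 0.77, 0.47 and 0.02 in the IVM pools and -3.20, -2.71 and -2.45 in the IVO pools, so the mitochondrial gene exceeded the cytosolic one in every IVM pool and was far below it in every IVO pool. For Iars2 to Iars they were 0.85, 1.52 and 0.89 in the IVM pools and 0.40, 0.26 and 0.20 in the IVO pools, all above 0. Lars2 to Lars, Wars2 to Wars and Fars2 to Farsa overlapped between the groups, with differences of -0.21, 0.01 and 0.42.

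**Figure D4:**
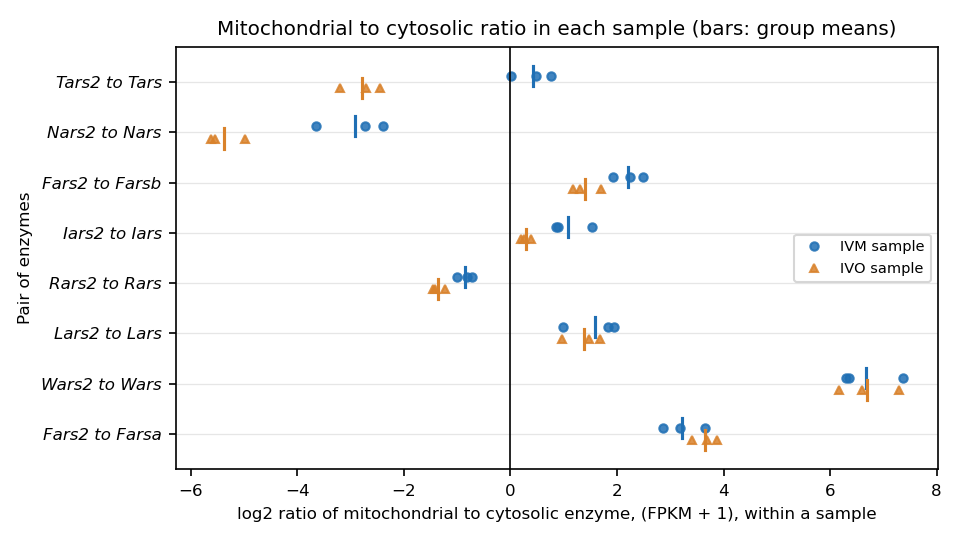
log2 ratio of the mitochondrial to the cytosolic enzyme, each as FPKM + 1, within a pool for pairs of tested enzymes, with blue circles for IVM pools, orange triangles for IVO pools and vertical bars for the group means. The lower 3 pairs overlap between groups and those above them do not, and the gap is widest for Tars2 to Tars at -3.20.

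The summed FPKM of a class followed its most abundant genes. The cytosolic sum was 1481 ± 179 FPKM in the IVM group and 1185 ± 161 in the IVO group (SD, n = 3), a ratio of 0.800, which was 0.995 with median-ratio scaling. The mitochondrial sum was 1483 ± 181 and 934 ± 192 FPKM (SD, n = 3), a ratio of 0.630, or 0.788 with that scaling, where the groups overlapped. Without Wars2 and Fars2 the remaining 15 mitochondrial genes summed to 154, 161 and 165 FPKM in the IVM pools and to 69.3, 62.3 and 75.9 in the IVO pools. These did not overlap under either scaling, with ratios of 0.433 and 0.542. Of these 15 genes, 9 lay under 1 FPKM. The sum includes the genes already called lower, and Iars2 alone had means of 58.3 FPKM in the IVM group and 25.1 in the IVO group. It therefore restates those calls in part. Without Dars and Farsb the cytosolic ratios were 0.788 and 0.983, and the groups overlapped under both scalings.

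The 13 members under 1 FPKM were not tested in the main fit, and their values rest on few fragments. In 5 of them, Mars1, Cars2, Yars2, Vars2 and Sars2, every IVO pool was lower than every IVM pool, where 16.3% of untested genes with a mean of 0.1 to 1 FPKM, and 9.23% of those with any signal, showed this. Cars2, the cysteinyl enzyme, was at 0.97, 0.83 and 1.37 FPKM in the IVM pools and at 0.65, 0.34 and 0.13 in the IVO pools. The exons of Cars2 share 4080 bases with Naxd, and those of Yars2 share 3594 with Dnm1l. Of the exon bases of Mars1, 47.2% lie over exons of Ddit3. The exons of Vars2 share 465 bases with Gm20483, and those of Sars2 share 289 with Mrps12. Sars2, the seryl enzyme, had 7, 8 and 11 fragments in the IVM pools and 0, 0 and 2 in the IVO pools. In the fit over all genes with any signal its log2FC was -0.33 (limma adjusted p = 0.0167). In that fit 9.36% of genes were called lower. Ears2, the glutamyl enzyme, was higher in every IVO pool, at no more than 2 fragments per pool, which is under the level of 3 fragments and is not read as a difference. In Mars2, Pars2, Aars, Vars, Yars, Hars2 and Aars2 the groups were not apart.

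Genes that act with the synthetases were taken as a list of 25, of which 21 were tested. By limma 4 were DEGs lower in the IVO group, at the background of 17.9%, and 1 had an adjusted p under 0.05 in the other direction, at that of 1.87%. The median log2FC was -0.14, and it turned to 0.14 with median-ratio scaling. Eef1e1, which encodes a further scaffold protein of the multi-synthetase complex, was at 62.4, 94.4 and 70.9 FPKM in the IVM pools and at 24.9, 26.1 and 28.5 in the IVO pools. The groups stood far apart, the log2FC was -1.47 (SE 0.21, limma adjusted p = 0.00447), and the call held in all 6 fits with a pool left out. Its partners Aimp1 and Aimp2 had log2FC of -0.07 and 0.20. Trnt1, which adds the CCA end that every tRNA needs before charging, was at 82.3, 88.9 and 95.9 FPKM in the IVM pools and at 151, 144 and 135 in the IVO pools. Every IVO pool was above every IVM pool, with a log2FC of 0.68 (SE 0.16, limma adjusted p = 0.0231), and the adjusted p exceeded 0.05 without IVM pool 1 and without IVO pool 1 or 2, at most 0.0824.

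In the route that senses uncharged tRNA, the kinase Eif2ak4 (GCN2) binds such tRNA with the help of Gcn1, translation of Atf4 follows, and Atf4 induces amino acid genes such as Asns and several synthetases. Of its 5 genes listed, 3 were called lower in the IVO group, where 21.5% of all tested genes were. Gcn1 was at 6.88, 5.47 and 6.57 FPKM in the IVM pools and at 2.32, 1.88 and 3.73 in the IVO pools, with a log2FC of -1.03 (SE 0.26, limma adjusted p = 0.0281). Atf4 was at 29.4, 16.3 and 25.7 FPKM in the IVM pools and at 12.3, 10.4 and 8.23 in the IVO pools, with a log2FC of -1.11 (SE 0.27, limma adjusted p = 0.0275). Asns, asparagine synthetase, was at 6.66, 9.57 and 13.8 FPKM in the IVM pools and at 3.45, 3.76 and 4.20 in the IVO pools, with a log2FC of -1.15 (SE 0.28, limma adjusted p = 0.0255). In each of these 3 the groups did not overlap, which held for 32.6% of all tested genes in that direction, but with median-ratio scaling the adjusted p was 0.0746, 0.0631 and 0.0608. Leaving out a pool ended the call in 5 of 6 fits for Gcn1 (held without IVO pool 3), 4 for Atf4 (held without IVM pool 2 and without IVO pool 1) and 5 for Asns (held without IVM pool 1). Eif2ak4 and Impact were not called, at log2FC of 0.19 and 0.30.

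**Figure D5:**
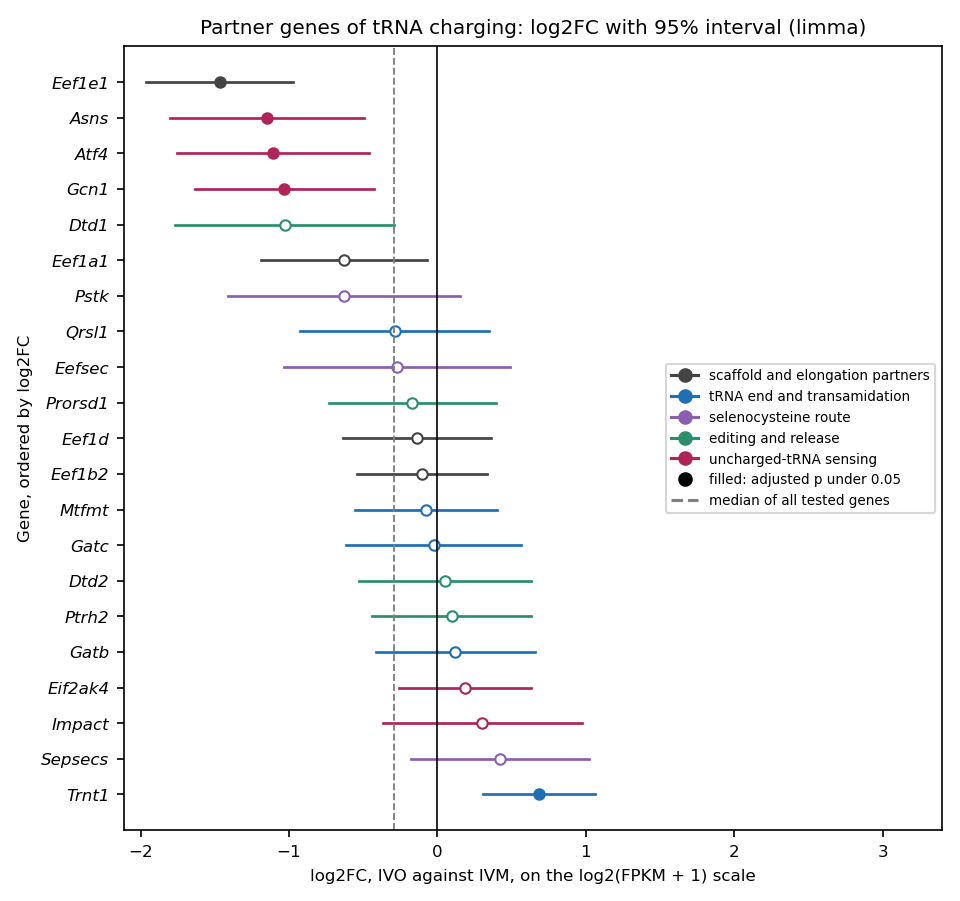
log2FC of the 21 tested partner genes (points) with its 95% interval from limma (lines), IVO against IVM, on the log2(FPKM + 1) scale, colored by role and filled where the adjusted p was under 0.05. Eef1e1, Asns, Atf4 and Gcn1 are the filled points on the negative side and Trnt1, at 0.68, is the filled point on the positive side.

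The remaining roles held no call. The genes of the selenocysteine route, Sepsecs, Pstk and Eefsec, had log2FC of 0.42, -0.63 and -0.27. The amidotransferase genes Qrsl1, Gatb and Gatc, which make mitochondrial glutaminyl-tRNA in place of a separate enzyme, had log2FC of -0.29, 0.12 and -0.03. Mtfmt, which formylates the initiator methionyl-tRNA in mitochondria, had one of -0.07. Dtd1, which clears D-amino acids from tRNA, was at 6.27, 4.67 and 6.23 FPKM in the IVM pools and at 2.15, 3.82 and 1.31 in the IVO pools, with a limma adjusted p of 0.0535. Eef1g, Tufm and Aarsd1 were under the filter.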

How the data were processed

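RNA-seq of 6 pools of MII oocytes, amplified with SMART-Seq v4, was used. The protocol primes on poly(A) tails, so tail length and mRNA level cannot be told apart. The authors used HISAT2 2.1.0 to align the reads to GRCm39, after SeqPrep and Sickle filtering, and deposited FPKM per gene from RSEM 1.3.3 (versions from the submitters' processing notes). The annotation release is not given in the sources used here. The deposited group means were not used. The authors tested counts with DESeq2, but the deposited FPKM values are not counts, so limma 3.58.1 in R 4.3.3 was fitted (trend, group alone, two-sided) on log2(FPKM + 1) for genes with a mean of at least 1 FPKM. Depth was inferred from single-transcript genes of 500 to 1500 bases with at most 5 fragments. With a tolerance of 0.005 FPKM, 66.3% to 71.1% of these values were whole fragments, against 11.7% to 13.7% by chance. Floors of 3 fragments cover counting error only. Groups and replicate numbers came from the sample titles. Called members, the highest and lowest of each class, and both enzymes of a called amino acid are given per sample, and others by counts and ranges. Some genes enter the counts and sums but are not reported here by name or drawn. The members and lists were chosen with earlier results of these data known. The fit was tested on simulated data.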

Additional observations from a re-analysis of the deposited data

How the results depend on the processing

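The members were refitted under 13 other settings and 6 fits that each left out a pool. Tars2, Nars2 and Iars2 kept their direction and an adjusted p under 0.05 in every fit that tested them, at -5.14 to -2.33, -5.18 to -1.93 and -1.39 to -0.70 (Tars2 and Nars2 were not tested at a mean of at least 5 FPKM). Rars2 and Tarsl2 kept their direction but not always the call. The 4 member DEGs lower in the IVO group became 2 at a mean of at least 5 FPKM and under median-ratio or quantile scaling, 7 with the length trend removed and 3 to 5 without a pool, and quantile normalization gave 2 DEGs higher. The 5 mitochondrial genes with an adjusted p under 0.05 became 2 at a mean of at least 5 FPKM, 3 under median-ratio or quantile scaling and with the length trend removed with median-ratio scaling (a setting added after seeing the data), and 3 to 5 without a pool (3 without IVM pool 1, IVM pool 2 or IVO pool 1). The 1 cytosolic gene called lower became 4 with the length trend removed, 0 without the filter, at a mean of at least 5 FPKM and with any change of scaling, and 0 to 2 without a pool (2 without IVM pool 3), while those called higher became 3 with median-ratio scaling (also on Ensembl genes only), 5 with quantile normalization and 1 with libraries scaled to the same sum or with the length trend removed with median-ratio scaling. With median-ratio scaling the genes with an adjusted p under 0.05 over the whole table were 2490 lower and 1344 higher, against 4050 and 351 as deposited. Such counts over all genes are not given for the other scalings.

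Median log2FC moved with the scaling. Quantile normalization turned it to 0.080 over all members, 0.16 over cytosolic members and 0.36 over the partner list, which was also 0.14 with median-ratio scaling (the same on Ensembl genes only) and 0.16 with libraries scaled to the same sum, and -0.31 with the length trend removed. The mitochondrial median was -0.44 without the filter, -0.80 at a mean of at least 5 FPKM, -0.77 with median-ratio scaling, -0.76 with libraries scaled to the same sum, -0.58 with quantile normalization and -1.27 with the length trend removed. Without a pool the medians were -0.48 to -0.28 (members), -0.39 to -0.19 (cytosolic), -1.20 to -0.93 (mitochondrial) and -0.17 to -0.06 (partner list). The log2 ratio of summed FPKM became -0.0070 for the cytosolic and -0.34 for the mitochondrial class with median-ratio scaling. The 4 partner DEGs lower in the IVO group became 1 without the filter, with median-ratio scaling (also on Ensembl genes only) and with libraries scaled to the same sum. They became 0 with quantile normalization and 1 to 2 without a pool (1 without IVM pool 3). The partner genes lower at an adjusted p under 0.05 became 1 without the filter and with median-ratio, same-sum and quantile scaling. They were 3 with median-ratio scaling on Ensembl genes only and 3 at a mean of at least 5 FPKM. Higher partner DEGs became 1 under the 4 scaling settings, and the 1 gene with an adjusted p under 0.05 became 3 with quantile normalization, 0 with the length trend removed and 0 to 1 without a pool. The causes of these moves were not tested.

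The IVM and IVO pools share only a replicate number, and same-numbered pools did not deviate together (r of -0.0618, -0.0176 and -0.107 over genes). With the replicate block, alone or with the length trend removed, the cytosolic gene called lower and the partner gene called higher each became 0. With the block alone the adjusted p was 0.0748 for Tarsl2, 0.0786 for Rars2 and 0.0571 for Gcn1, and with the length trend removed as well the mitochondrial median was -1.27 and that of the partner list -0.31. Depth limits the 13 members under 1 FPKM.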
